A study of Homo sapiens with 18 samples.

Results

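The genes described here are 32 genes known as transcriptional targets of the tumour suppressor p53, chosen by name from textbook knowledge of the pathway and followed in K562, a chronic myeloid leukaemia cell line that makes no functional p53. Of the 32 listed genes, 30 had a row in the count table, and PLK2 and SPATA18 were not analysed here. Of these 30, 29 passed the filter on low counts, among 22143 genes tested of 41285 in the table. PHLDA3, which dampens AKT signalling, was not tested, with 20 counts in all 18 libraries together. Each of 9 groups had 2 libraries. The VPR-D9 line, which carries an inducible dCas9-VPR activator, was in the doxycycline groups D6 and D2000 or untreated. The KRAB-D9 line, which carries an inducible dCas9-KRAB repressor, was given doxycycline with interferon alpha (IFN), doxycycline, IFN or no treatment. The parental line was given IFN or no treatment. Sample titles carry WT for the VPR-D9 and KRAB-D9 lines and iso for the line called parental here. Doxycycline, at 2 µg/mL per the labels' protocol, switched on the dCas9 fusions. IFN (1000 U/mL) was present for 24 hours, and cells of the combined group already had 24 hours of doxycycline behind them. The meaning of the codes D6 and D2000, the D6 dose, the duration of doxycycline without IFN, and whether VPR-D9 and KRAB-D9 are single clones, are not given in these sources. All groups share the K562 background, and no parental cells given doxycycline were analysed here, so doxycycline itself and the fusion it induces cannot be told apart.

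p53 is a transcription factor that is stabilised after DNA damage and other stress, binds paired copies of a decamer in DNA and activates genes for cell cycle arrest, apoptosis, DNA repair and metabolism. Its target MDM2 encodes the ubiquitin ligase that returns p53 to a low level, and CDKN1A encodes p21, the cyclin-dependent kinase inhibitor through which p53 also lowers cell cycle genes by way of the DREAM repressor complex. Many of these genes have other activators too, such as ATF4 and CHOP in the stress response, FOXO factors, and the p53 relatives p63 and p73, which bind the same DNA sequence.

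Levels are given as CPM, counts per 1e+06 counts after TMM scaling, for replicate 1 and then replicate 2. Changes are log2 fold changes ± standard error from 1 edgeR quasi-likelihood model of all 18 libraries, with 2 libraries in each group, and a gene was called where its p, adjusted by Benjamini-Hochberg across the 22143 genes, fell under 0.05. The labels do not say whether the replicates were separate cultures, so p-values measure the spread between these libraries, which may be technical. Library totals lay between 32.7 and 63 M counts. The listed genes took 0.1289 to 0.1618% of the counts of a library. The shallowest library was KRAB-D9 with IFN replicate 1, and the replicates of that group differed more from each other (SD of the log2 difference 0.176) than those of the other groups (0.105 to 0.126). Erythroid genes were present in every library (GATA1 at 127 to 247 CPM and TFRC at 219 to 1718 CPM). The 4 lymphoid markers with a row summed to 2.98 to 16.8 CPM, with the highest sums in D2000. Of these, CD3D, CD3E and CD79A together summed to 1.2 to 5.64 CPM. In D2000 they summed to 2.63 and 2.33 CPM, against 16.8 and 15.6 CPM for all 4. Most of the D2000 sum was thus from the remaining marker, which is not reported here. The epithelial gene CDH1 stayed at or under 0.174 CPM. EPCAM, a further epithelial marker, was at 30.4 to 98.8 CPM. The 5 fibroblast and epithelial markers summed to 62.9 to 134 CPM. SAMD9, the gene the study set out to switch, had 936 and 960 CPM in D6 and 974 and 948 CPM in D2000, against 59.9 and 61.4 CPM in untreated VPR-D9 cells. In KRAB-D9 cells SAMD9 had 0.849 and 0.745 CPM with doxycycline and IFN, against 55 and 53.5 CPM with IFN.

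The genes of the p53 relatives differed between the untreated lines. TP73, which encodes p73, had 1.62 and 1.4 CPM in untreated VPR-D9 cells and 15.1 and 14.5 CPM in untreated KRAB-D9 cells, against 3.69 and 3.39 CPM in parental cells. It was lower in VPR-D9 (log2 change -1.23 ± 0.17, edgeR adjusted p = 1.75e-07) and higher in KRAB-D9 (2.06 ± 0.14, edgeR adjusted p = 1.03e-14). TP63, which encodes p63, did not exceed 0.1 CPM in any VPR-D9 library and had 1.62 and 1.09 CPM in untreated parental cells.

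The proximal promoters of 4 of the genes are shown because AEN and FDXR hold a p53 decamer there, while CDKN1A and BTG2, on which several results below turn, hold none in this window. The sequences are from RefSeq (GRCh38.p14), from 250 bases before to 50 bases after the annotated start. They lie at chr15:88621090-88621389 on the plus strand for AEN, chr17:74872945-74873244 on the minus strand for FDXR, chr6:36678464-36678763 on the plus strand for CDKN1A and chr1:203305269-203305568 on the plus strand for BTG2. Capitals mark the decamer.
AEN: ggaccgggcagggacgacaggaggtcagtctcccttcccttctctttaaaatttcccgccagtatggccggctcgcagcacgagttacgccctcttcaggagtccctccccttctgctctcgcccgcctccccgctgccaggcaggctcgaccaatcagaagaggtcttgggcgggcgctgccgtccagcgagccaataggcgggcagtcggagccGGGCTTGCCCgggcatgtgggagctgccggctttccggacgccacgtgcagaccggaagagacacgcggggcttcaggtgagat
FDXR: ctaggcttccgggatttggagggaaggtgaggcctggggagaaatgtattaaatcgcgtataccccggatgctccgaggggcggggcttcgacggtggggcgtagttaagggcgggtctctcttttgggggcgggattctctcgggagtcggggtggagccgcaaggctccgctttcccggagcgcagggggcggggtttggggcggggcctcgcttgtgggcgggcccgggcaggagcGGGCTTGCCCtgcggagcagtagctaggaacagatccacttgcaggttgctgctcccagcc
CDKN1A: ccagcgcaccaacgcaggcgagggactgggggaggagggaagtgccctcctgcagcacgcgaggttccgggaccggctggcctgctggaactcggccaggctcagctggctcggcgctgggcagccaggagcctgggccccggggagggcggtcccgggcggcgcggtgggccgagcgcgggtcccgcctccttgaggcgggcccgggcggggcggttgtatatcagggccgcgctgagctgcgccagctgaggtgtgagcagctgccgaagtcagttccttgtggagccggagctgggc
BTG2: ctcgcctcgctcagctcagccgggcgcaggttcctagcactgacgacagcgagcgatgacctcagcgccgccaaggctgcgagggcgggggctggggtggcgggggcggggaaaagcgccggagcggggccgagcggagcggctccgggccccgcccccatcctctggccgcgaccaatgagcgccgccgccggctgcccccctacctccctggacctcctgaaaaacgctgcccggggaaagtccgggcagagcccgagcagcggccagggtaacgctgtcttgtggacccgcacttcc

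Of the 32 listed genes, 25 had a promoter in the RefSeq table, PLK2 among them. A p53 decamer (the consensus, a palindrome, so that either strand gives the same matches) was found in 3 of the 25, or 12%, against 6.54% of 27305 promoters of the same length. In AEN it started 34 bases and in FDXR 11 bases before the annotated start, with the same letters, GGGCTTGCCC, in both, and the third match was in PLK2. No promoter of a listed gene held a pair of decamers spaced by 0 to 13 bases, and 0.0293% of all promoters did. The C/EBP-ATF element TGATGNAA, on either strand, was found in PLK3 (4% of the 25, against 3.67% of all promoters), and the cell cycle homology region TTTGAA in FAS (4%, against 15.4%). A match is a description of these letters, and sites outside the window, where p53 binds at many of its targets, were not searched.

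The listed genes covered a wide range of levels. Per kilobase of gene model, over the means of the 9 groups, CCNG1, a cyclin induced by p53, stood at 66.8 CPM per kilobase, GADD45A, a stress and repair factor, at 60.1, CMBL, a hydrolase, at 47.4, and TRIAP1, a p53-induced survival factor of mitochondria, at 38.1. CDKN1A stood at 2.54 CPM per kilobase, and FAS, the death receptor, at 0.045. FAS, EDA2R, PERP and TIGAR had 223, 745, 224 and 151 counts in all libraries together. Several genes stayed within narrow limits: over the means of the 9 groups, POLH lay between 57.8 and 71.5 CPM, BAX between 58.4 and 74.7 CPM, XPC between 54.7 and 79.3 CPM and PPM1D between 20.5 and 30.3 CPM. RRM2B lay between 34.7 and 54.6 CPM, SESN1 between 21.6 and 35.3 CPM, CMBL between 172 and 279 CPM and MDM2 between 49.8 CPM in D2000 and 102 CPM in KRAB-D9 with both treatments. PERP, a gene of epithelial adhesion and apoptosis, was between 0.0665 and 0.567 CPM and was called in none of the 14 comparisons. The other 25 tested genes had a mean of at least 5 CPM, a level reached by 10446 of the genes tested, and counts of calls are read below against genes of that level as well.

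**Figure D1:**
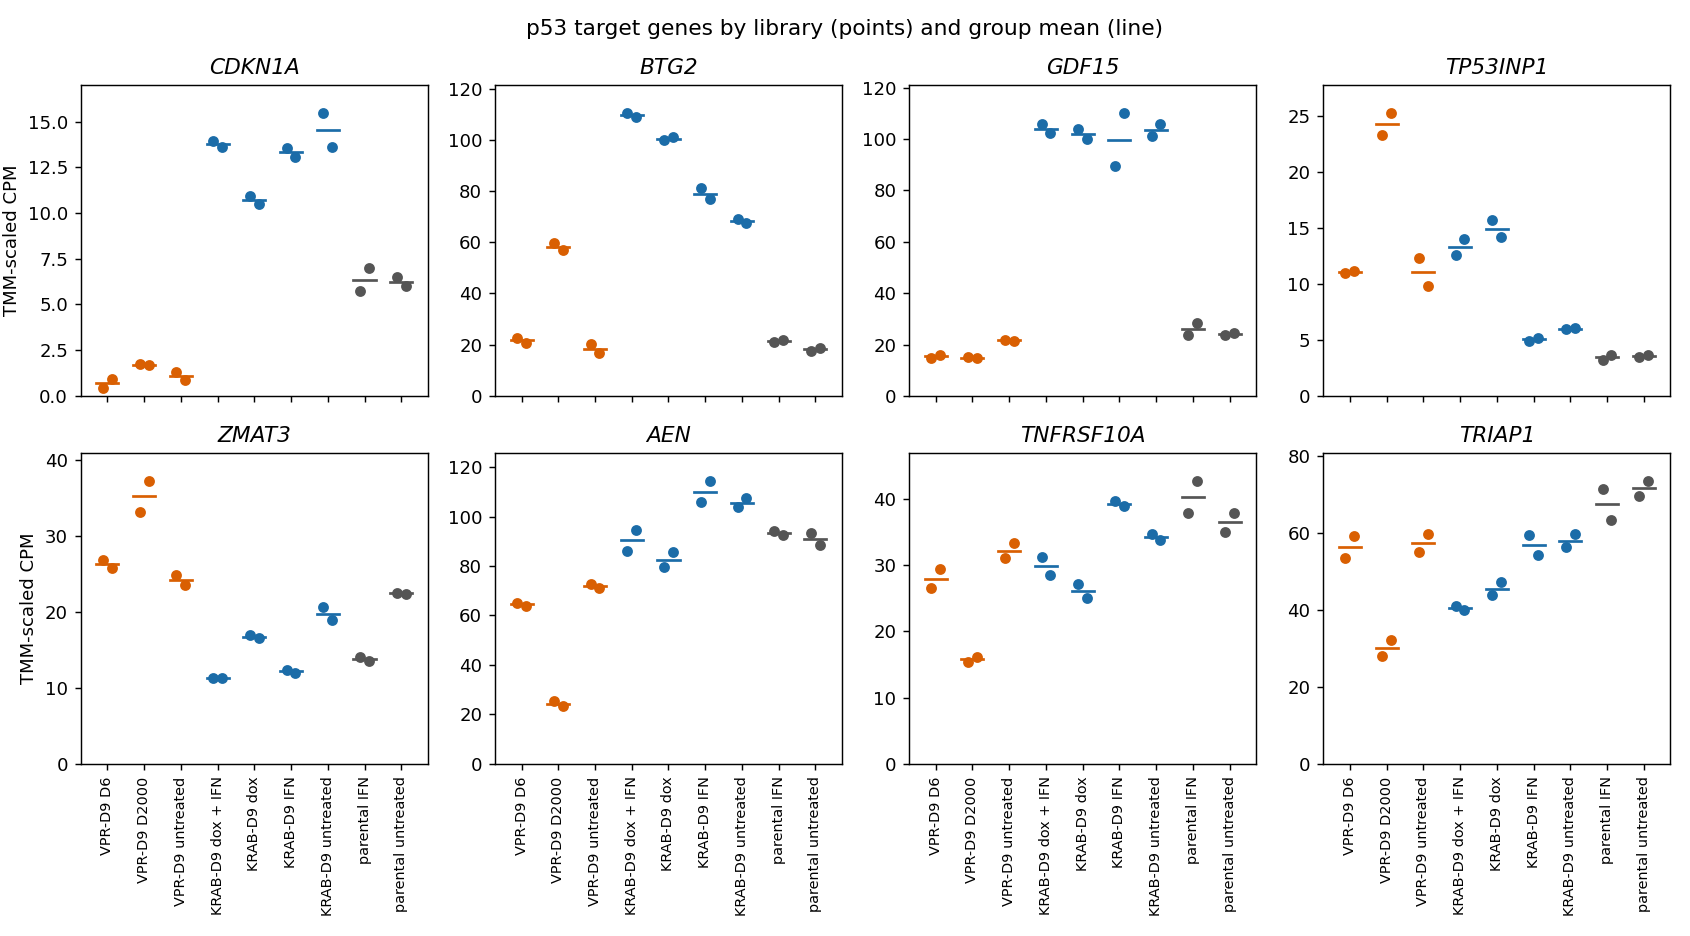
TMM-scaled CPM of 8 listed genes in each of the 18 libraries, 1 point a library, with the groups along the horizontal axis and a separate vertical axis for each gene. BTG2 and GDF15 were near 20 CPM in untreated VPR-D9 and parental cells and at 67.5 to 106 CPM in untreated KRAB-D9 cells, and AEN was at 25.5 and 23.3 CPM in D2000, under all its other libraries.

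Before any treatment, the lines differed in several of the best known p53 targets. Untreated KRAB-D9 cells had more GDF15, BTG2, BTG1 and CDKN1A RNA than parental cells, and untreated VPR-D9 cells had less CDKN1A and more TP53INP1 RNA. In KRAB-D9, 14 listed genes were higher and 5 lower than in parental cells, where 28.5% of all genes tested were called, 14.2% higher and 14.3% lower. In VPR-D9, 6 were higher and 10 lower, where 36.8% of all genes were called, 18.5% higher and 18.2% lower. Among genes of at least 5 CPM, 18 of the 25 listed genes (72%) were called in KRAB-D9, against 45.8% of all such genes, and 13 (52%) in VPR-D9, against 58.8%. Both sets of values share the parental libraries. The 10 erythroid markers differed as well: 10 were higher in KRAB-D9, and in VPR-D9 2 were higher and 6 lower, with sums of 1426 and 1424 CPM in VPR-D9 and 3192 and 3227 CPM in KRAB-D9, against 2059 and 2073 CPM in parental cells. Of the 4 tested fibroblast and epithelial markers, 2 were higher and 2 lower in VPR-D9 and 2 higher and 1 lower in KRAB-D9, with sums of 69.2 and 73.6 CPM in VPR-D9 and 115 and 114.1 CPM in KRAB-D9, against 101.6 and 99.8 CPM in parental cells. Of the 4 tested lymphoid markers, 1 was higher and 1 lower in VPR-D9, and 0 were higher and 1 lower in KRAB-D9. The part of any of these lists in these differences was not tested.

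Of the genes of cell cycle arrest, CDKN1A (chr6:36676460-36687337, GRCh38) had 1.32 and 0.868 CPM in VPR-D9 cells and 15.5 and 13.6 CPM in KRAB-D9 cells, against 6.5 and 6 CPM in parental cells. The 3 lines did not overlap, and CDKN1A was lower in VPR-D9 (-2.52 ± 0.19, edgeR adjusted p = 6.4e-14) and higher in KRAB-D9 (1.22 ± 0.15, edgeR adjusted p = 3.69e-08). TP73 stood in the same order across the lines; its part in the CDKN1A difference was not tested. BTG2, an antiproliferative factor that recruits the mRNA deadenylation machinery, had 20.1 and 16.6 CPM in VPR-D9 and 69 and 67.5 CPM in KRAB-D9, against 17.4 and 18.8 CPM in parental cells. It was called in KRAB-D9 (1.91 ± 0.07, edgeR adjusted p = 2.93e-23), while its VPR-D9 libraries overlapped the parental ones. Its relative BTG1 had 46.8 and 45.5 CPM in VPR-D9 and 92.5 and 91.8 CPM in KRAB-D9, against 39.5 and 37.2 CPM in parental cells, a log2 change of 0.27 ± 0.06 in VPR-D9 and 1.27 ± 0.06 in KRAB-D9. GADD45A had 73 and 71 CPM in VPR-D9 and 156 and 158 CPM in KRAB-D9, against 96.7 and 98 CPM in parental cells, so that it was lower in VPR-D9 (-0.44 ± 0.05) and higher in KRAB-D9 (0.69 ± 0.04). PLK3, a stress kinase, was higher in KRAB-D9 (0.58 ± 0.11), at 14.8 and 13.4 CPM, against 9.74 and 9.13 CPM in parental cells.

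GDF15, a secreted stress cytokine, had 22 and 21.3 CPM in VPR-D9 and 101 and 106 CPM in KRAB-D9, against 23.7 and 24.3 CPM in parental cells. It was the listed gene with the largest change among those above 5 CPM in KRAB-D9 (2.11 ± 0.08, edgeR adjusted p = 1.64e-20). TP53INP1, a p53 cofactor also active in autophagy, had 12.3 and 9.79 CPM in VPR-D9 and 5.94 and 6.07 CPM in KRAB-D9, against 3.49 and 3.7 CPM in parental cells, and was higher in VPR-D9 (1.62 ± 0.13, edgeR adjusted p = 3.75e-13) and in KRAB-D9 (0.74 ± 0.14, edgeR adjusted p = 5.05e-05). Of the apoptosis genes, BBC3, which encodes the BH3-only protein PUMA, had 7.18 and 7.51 CPM in VPR-D9 and 19 and 21.3 CPM in KRAB-D9, against 13.8 and 12.2 CPM in parental cells, and was lower in VPR-D9 (-0.82 ± 0.12) and higher in KRAB-D9 (0.63 ± 0.11). The death receptor gene TNFRSF10B had 34.2 and 36.3 CPM in VPR-D9 and 23 and 23.3 CPM in KRAB-D9, against 21.6 and 20.3 CPM in parental cells, and only the VPR-D9 difference was called (0.75 ± 0.08). FDXR, a mitochondrial electron transfer enzyme, had 96.3 and 91.7 CPM in VPR-D9 and 41.9 and 42 CPM in KRAB-D9, against 58.6 and 60.1 CPM in parental cells, a rise in VPR-D9 (0.66 ± 0.06) and a fall in KRAB-D9 (-0.50 ± 0.06). The remaining calls at over 5 CPM were no larger than 0.44 in either direction. In KRAB-D9 these were AEN (0.22), BAX (0.21), SESN1 (0.20), POLH (0.19) and XPC (0.15) higher and PPM1D (-0.44), TRIAP1 (-0.31), CCNG1 (-0.19) and CMBL (-0.15) lower, and in VPR-D9 PLK3 (0.35) and RRM2B (0.17) higher and MDM2 (-0.35), AEN (-0.34), TRIAP1 (-0.32) and XPC (-0.16) lower. EDA2R, a receptor of the TNF receptor family, had 0 and 4 counts in VPR-D9 and 71 and 66 counts in KRAB-D9, against 14 and 5 counts in parental cells. FAS had 0 and 0 counts in VPR-D9 and 38 and 22 counts in KRAB-D9, against 2 and 11 counts in parental cells, and TIGAR, a regulator of glycolysis, had 1 and 1 counts in VPR-D9 and 10 and 5 counts in KRAB-D9, against 14 and 16 counts in parental cells. ACTA2, on the opposite strand with 380 exon bases in common with FAS in GENCODE 29, had 112% as many counts as FAS. ACTA2 was higher in KRAB-D9 (3.14 ± 0.94, edgeR adjusted p = 0.0094) and not called in VPR-D9 (-2.53 ± 1.42, edgeR adjusted p = 0.179). The reads of FAS and ACTA2 may not be told apart.

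Leaving out 1 library ended 12 of these calls, none of them a gene whose change at over 5 CPM exceeded 0.5. In VPR-D9, PLK3 (0.35 ± 0.11) was lost without untreated VPR-D9 replicate 1 (0.31, edgeR adjusted p = 0.104) or parental replicate 2 (0.30, 0.119), XPC without VPR-D9 replicate 1 (-0.13, 0.188) or parental replicate 1 (-0.12, 0.193), and RRM2B without VPR-D9 replicate 2 (0.12, 0.333) or parental replicate 1 (0.13, 0.278). EDA2R was lost without VPR-D9 replicate 1 (edgeR adjusted p = 0.224) or parental replicate 1 (0.309), FAS without VPR-D9 replicate 2 (0.0536) or parental replicate 2 (0.173), and TIGAR without VPR-D9 replicate 1 (0.0728) or 2 (0.0788). In KRAB-D9, CCNG1 (-0.15, edgeR adjusted p = 0.0696) and AEN (0.17, 0.0671) were lost without parental replicate 2, BAX without parental replicate 1 (0.15, 0.143) and CMBL without KRAB-D9 replicate 2 (-0.13, 0.0722). XPC and SESN1 were lost without any of the 4 libraries, with edgeR adjusted p-values of 0.0505 to 0.275 for XPC and 0.0596 to 0.311 for SESN1.

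Doxycycline in the D2000 group of VPR-D9 cells moved the listed genes in both directions. BTG2, TP53INP1, TP53I3, CCNG1, ZMAT3 and TNFRSF10B rose, while AEN, TNFRSF10A, TRIAP1, GDF15 and MDM2 fell. In all, 12 of the 29 were higher and 10 lower than in untreated VPR-D9 cells, and 46.1% of all genes tested were called, 21.9% higher and 24.2% lower. At 5 CPM or more, 21 of the 25 (84%) were called, against 73.2% of all such genes. The median change of the 29 was 0.10, against 0.06 for all genes tested. Scaled by library totals instead of TMM, the median of all genes moved to 0.29 and the split of the listed genes to 14 higher and 8 lower. Erythroid markers moved with this treatment: 0 of 10 were higher and 8 lower, with sums of 678 and 668 CPM in D2000, against 1426 and 1424 CPM in untreated VPR-D9 cells. Of the 4 tested fibroblast and epithelial markers, 1 was higher and 2 lower, with sums of 63.5 and 62.9 CPM in D2000, against 69.2 and 73.6 CPM. Of the 4 tested lymphoid markers, 2 were higher and 1 lower, with sums of 16.8 and 15.6 CPM in D2000, against 9.7 and 11.1 CPM. The part of any of these lists in the changes below was not tested.

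Among the arrest genes, BTG2 (chr1:203305491-203309602, GRCh38) had 59.6 and 57.1 CPM in D2000, against 20.1 and 16.6 CPM in untreated VPR-D9 cells. The groups stood far apart, with a log2 change of 1.67 ± 0.07 (edgeR adjusted p = 1.29e-22). CCNG1 had 291 and 280 CPM in D2000, against 192 and 199 CPM (0.54 ± 0.05, edgeR adjusted p = 4.66e-12), its highest level in any group. CDKN1A, in contrast, stayed low, at 1.75 and 1.66 CPM in D2000, against 1.32 and 0.868 CPM in untreated cells. Its call (0.65 ± 0.21, edgeR adjusted p = 0.0111) was lost without untreated replicate 2 (0.36, 0.277) or D2000 replicate 1 (0.61, 0.0599). GADD45A fell (-0.48 ± 0.05, edgeR adjusted p = 1.11e-11), at 51.6 and 51.5 CPM in D2000, against 73 and 71 CPM. ZMAT3, an RNA-binding zinc finger protein that guides splicing, had 33.2 and 37.2 CPM in D2000, against 24.8 and 23.5 CPM (0.54 ± 0.08, edgeR adjusted p = 3.73e-07).

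Among the regulators and cofactors of p53, TP53INP1 had 23.3 and 25.3 CPM in D2000, against 12.3 and 9.79 CPM in untreated VPR-D9 cells (1.14 ± 0.11, edgeR adjusted p = 4.45e-11). MDM2 fell by 0.41 on the log2 scale and PPM1D, the phosphatase that also restrains p53 signalling, by 0.25. Scaled by library totals, the change of PPM1D was -0.0172 (edgeR adjusted p = 0.891). The call of PPM1D was lost without untreated replicate 2 (-0.24, edgeR adjusted p = 0.0678) or D2000 replicate 2 (-0.14, 0.323). TP53I3, an oxidoreductase gene linked to oxidative stress, had 10.9 and 9.57 CPM in D2000, against 4.85 and 5.9 CPM (0.93 ± 0.17, edgeR adjusted p = 9.61e-06). FAM228B, which lies on the opposite strand with 80 exon bases in common with TP53I3 in GENCODE 29 and had 78% as many counts, rose too (1.22 ± 0.17, edgeR adjusted p = 6.53e-08). The strand setting of the counting is not stated in the labels or notes, so their reads may not be told apart.

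The apoptosis genes were split. AEN, a nuclease induced by p53 that takes part in apoptosis, had 25.5 and 23.3 CPM in D2000, against 72.6 and 71.1 CPM in untreated VPR-D9 cells. This was the largest fall among the called changes of the listed genes with any treatment (-1.56 ± 0.06, edgeR adjusted p = 1.51e-23), and its promoter is one of those shown with a p53 decamer. TRIAP1 had 28.1 and 32.2 CPM in D2000, against 55.2 and 59.9 CPM (-0.94 ± 0.07, edgeR adjusted p = 1.86e-14). The neighbouring TRAIL receptor genes moved apart. TNFRSF10A had 15.4 and 16.1 CPM in D2000, against 31.1 and 33.3 CPM (-1.03 ± 0.08, edgeR adjusted p = 2.82e-14), while TNFRSF10B had 48.7 and 47.7 CPM, against 34.2 and 36.3 CPM (0.45 ± 0.08, edgeR adjusted p = 3.39e-06). Of the genes overlapping them on the opposite strand, TNFRSF10A-AS1 fell (-0.77 ± 0.23) and RHOBTB2 rose (0.54 ± 0.19). BAX, the pore-forming protein of the outer mitochondrial membrane, had 75.8 and 68.3 CPM in D2000, against 71.4 and 66.8 CPM, and BBC3 had 6.36 and 7.78 CPM, against 7.18 and 7.51 CPM; neither was called.

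Of the metabolic and secreted products, GDF15 had 15.1 and 14.6 CPM in D2000, against 22 and 21.3 CPM in untreated VPR-D9 cells (-0.54 ± 0.08, edgeR adjusted p = 1.37e-06). CMBL fell by 0.50 and FDXR, the other promoter shown with a decamer, by 0.45 on the log2 scale, while SESN1, an inhibitor of mTORC1 signalling, rose by 0.39 ± 0.07. TIGAR had 29 and 17 counts in D2000, against 1 and 1 counts, and no fold is given for so few. The DNA repair genes changed little. XPC, the damage sensor of nucleotide excision repair, fell by 0.23, but its change was 0.00387 (edgeR adjusted p = 0.969) when libraries were scaled by their totals. RRM2B, a subunit of ribonucleotide reductase, rose by 0.22 ± 0.06, a call lost without untreated replicate 1 (0.16, edgeR adjusted p = 0.115). DDB2, which recognises ultraviolet damage, was called at 0.30 ± 0.12 and lost without untreated replicate 1 (0.16, edgeR adjusted p = 0.453) or D2000 replicate 2 (0.23, 0.254). POLH, a translesion polymerase gene, was called at 0.13 ± 0.05 and lost without untreated replicate 1 (0.10, edgeR adjusted p = 0.243), untreated replicate 2 (0.14, 0.0922) or D2000 replicate 2 (0.11, 0.212).

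The D6 group of the same line showed few of these changes. Against untreated VPR-D9 cells, 1 of the 29 was higher and 3 lower, where 6.6% of all genes were called, 3.19% higher and 3.41% lower; at 5 CPM or more it was 4 of 25 (16%), against 11.9%. Scaled by library totals, 2 were higher and 3 lower. Of the 10 erythroid markers, 0 were higher and 3 lower, with sums of 1271 and 1291 CPM in D6, against 1426 and 1424 CPM, and of the 4 fibroblast and epithelial markers 1 was higher and 0 lower, with sums of 93.7 and 93.3 CPM, against 69.2 and 73.6 CPM. GDF15 had 14.8 and 16 CPM in D6, against 22 and 21.3 CPM (-0.49 ± 0.09, edgeR adjusted p = 0.000181), and GADD45A had 62 and 58.2 CPM, against 73 and 71 CPM (-0.26 ± 0.05, edgeR adjusted p = 0.000151). BTG2 was called at 0.25 ± 0.07 and lost without untreated replicate 2 (0.11, edgeR adjusted p = 0.644) or D6 replicate 1 (0.18, 0.391), and FDXR was called at -0.27 ± 0.06 and lost without untreated replicate 1 (-0.23, 0.0846) or D6 replicate 2 (-0.21, 0.138). D6 and D2000 share the untreated libraries, so they were compared with each other. In D6 against D2000, 7 listed genes were higher and 10 lower, where 40.4% of all genes were called, 21.7% higher and 18.8% lower. Scaled by library totals, 4 were higher and 14 lower, and the share of higher calls among all genes moved from 53.6% to 31.2%. At 5 CPM or more it was 17 of 25 (68%), against 67%. Between these groups 8 erythroid markers were higher and 1 lower in D6, and the part of the marker lists in the D6 results was not tested. BTG2 had 22.6 and 20.8 CPM in D6, against 59.6 and 57.1 CPM in D2000 (-1.43 ± 0.07, edgeR adjusted p = 3.34e-20). CDKN1A had 0.444 and 0.94 CPM in D6, against 1.75 and 1.66 CPM in D2000 (-1.32 ± 0.24, edgeR adjusted p = 1.88e-05). AEN had 65.1 and 63.9 CPM in D6, against 25.5 and 23.3 CPM in D2000 (1.40 ± 0.06, edgeR adjusted p = 1.01e-21). The other calls were lower in D6 for TP53INP1 (-1.13), TP53I3 (-0.91), DDB2 (-0.45), ZMAT3 (-0.42), TNFRSF10B (-0.40), CCNG1 (-0.40), SESN1 (-0.31) and RRM2B (-0.27), and higher for TRIAP1 (0.91), TNFRSF10A (0.83), CMBL (0.51), MDM2 (0.32), GADD45A (0.22) and FDXR (0.19). SAMD9 was not called between these groups (-0.02 ± 0.05, edgeR adjusted p = 0.821). TP73 had 1.29 and 0.877 CPM in D6, against 1.85 and 1.41 CPM in D2000 (-0.58 ± 0.20, edgeR adjusted p = 0.018), and its part in the CDKN1A difference was not tested.

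**Figure D2:**
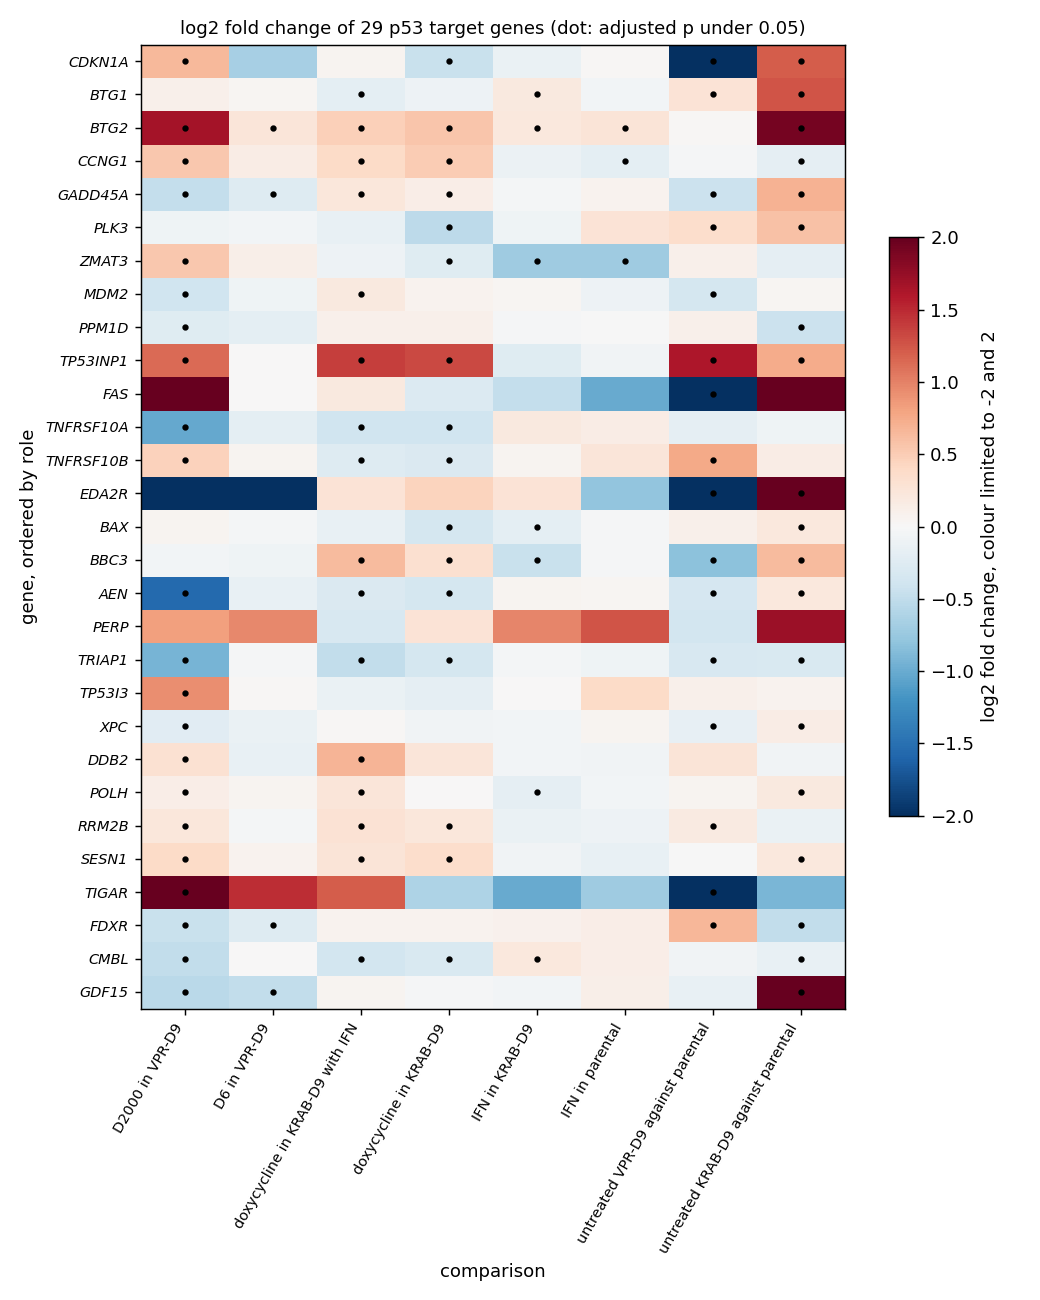
Log2 fold changes of the 29 tested genes (rows) in 8 comparisons (columns), with colours limited to -2 to 2 and a dot where the edgeR adjusted p was under 0.05. The columns of D2000 and of the untreated lines hold the deepest colours, those of D6 and IFN few dots (4 for D6, 3 for IFN in parental cells, 7 for IFN in KRAB-D9); the values of FAS, EDA2R, TIGAR and PERP rest on few counts.

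In KRAB-D9 cells, doxycycline also moved the listed genes in both directions. TP53INP1, BTG2, CCNG1 and SESN1 rose, while PLK3, TNFRSF10A, AEN, BAX, TRIAP1 and CMBL fell, and GDF15 and MDM2 were not called. Against untreated KRAB-D9 cells, 7 of the 29 were higher and 9 lower, where 24.7% of all genes tested were called, 12% higher and 12.7% lower; at 5 CPM or more it was 16 of 25 (64%), against 44.7%. With IFN present in both groups, 10 were higher and 6 lower, where 22.3% of all genes were called, 10.4% higher and 11.9% lower; at 5 CPM or more it was again 16 of 25 (64%), against 40.9%. These comparisons use separate libraries. Of the 10 erythroid markers, 7 were higher and 0 lower with doxycycline, with sums of 3809 and 3714 CPM, against 3192 and 3227 CPM in untreated KRAB-D9 cells. Of the 4 tested fibroblast and epithelial markers, 0 were higher and 4 lower, with sums of 84 and 83.9 CPM, against 115 and 114.1 CPM. Of the 4 tested lymphoid markers, 0 were higher and 1, CD3D, was lower, with sums of 3.35 and 2.98 CPM, against 7.37 and 6.89 CPM. With IFN present, 6 erythroid markers were higher and 0 lower, and 0 fibroblast and epithelial markers were higher and 3 lower. The part of any of these lists in the changes of the listed genes was not tested. All 7 genes that rose with doxycycline alone also rose with IFN present, where they were 70% of the 10 that rose. Of the 9 that fell, 5 (55.6%) also fell there, where they were 83.3% of the 6 that fell. No listed gene was called in opposite directions. The overlap of calls among all genes was not computed, so these shares cannot be read as particular to the listed genes.

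TP53INP1 showed the largest change, at 15.7 and 14.2 CPM with doxycycline, against 5.94 and 6.07 CPM in untreated KRAB-D9 cells (1.32 ± 0.12, edgeR adjusted p = 8.31e-11). With IFN present it had 12.6 and 14.1 CPM with doxycycline, against 4.93 and 5.22 CPM without (1.39 ± 0.13, edgeR adjusted p = 6.29e-11). No group overlapped its control in either setting. NDUFAF6, which overlaps TP53INP1 on the opposite strand with no exon base in common, changed by -0.20 ± 0.07 with doxycycline. BTG2 had 100 and 101 CPM with doxycycline, against 69 and 67.5 CPM (0.56 ± 0.06, edgeR adjusted p = 4.25e-09), and 110 and 109 CPM with doxycycline and IFN, against 81.2 and 76.9 CPM with IFN (0.48 ± 0.06, edgeR adjusted p = 1.51e-07). CCNG1 had 256 and 241 CPM with doxycycline, against 174 and 175 CPM (0.51 ± 0.05, edgeR adjusted p = 2.66e-10), and 209 and 211 CPM with both, against 174 and 148 CPM with IFN (0.39 ± 0.05, edgeR adjusted p = 1.37e-07). SESN1 rose by 0.35 ± 0.08 and RRM2B by 0.23 ± 0.07 with doxycycline alone.

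CDKN1A did not rise with doxycycline in this line. It had 10.9 and 10.5 CPM with doxycycline, against 15.5 and 13.6 CPM (-0.44 ± 0.15, edgeR adjusted p = 0.0245), a call lost without untreated replicate 1 (-0.35, 0.218), doxycycline replicate 1 (-0.47, 0.0799) or doxycycline replicate 2 (-0.41, 0.133). With IFN present it had 13.9 and 13.6 CPM with doxycycline, against 13.6 and 13.1 CPM, and was not called. PLK3 had 10.7 and 9.09 CPM with doxycycline, against 14.8 and 13.4 CPM (-0.52 ± 0.11, edgeR adjusted p = 0.000571), and 12.4 and 11.6 CPM with both, against 13.5 and 13.3 CPM with IFN, where it was not called. TNFRSF10A had 27.1 and 25 CPM with doxycycline, against 34.7 and 33.8 CPM (-0.39 ± 0.08, edgeR adjusted p = 0.000136), and changed by -0.39 ± 0.08 with IFN present. RP11-1149O23.3, which overlaps TNFRSF10A and had 23% as many counts, fell with doxycycline (-0.59 ± 0.16, edgeR adjusted p = 0.00357). It was not called with IFN present (-0.22 ± 0.15, edgeR adjusted p = 0.37) or in D2000 (-0.13 ± 0.15, edgeR adjusted p = 0.496). The reads of RP11-1149O23.3 and TNFRSF10A may not be told apart. AEN had 79.4 and 85.5 CPM with doxycycline, against 104 and 108 CPM (-0.36 ± 0.06, edgeR adjusted p = 3.05e-06), and changed by -0.29 ± 0.06 with IFN present. TRIAP1 changed by -0.35 ± 0.07 with doxycycline and -0.48 ± 0.07 with IFN present, and CMBL by -0.30 ± 0.04 and -0.37 ± 0.04. BAX changed by -0.36 ± 0.06 (edgeR adjusted p = 9.78e-06) with doxycycline alone and was not called with IFN present. GDF15 had 104 and 100 CPM with doxycycline, against 101 and 106 CPM in untreated cells, so that the groups overlapped.

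Calls with IFN present that were not made without it were DDB2, at 14.2 and 13.8 CPM with doxycycline and IFN, against 9.21 and 8.47 CPM with IFN (0.67 ± 0.13, edgeR adjusted p = 9.52e-05), POLH (0.25 ± 0.05), MDM2 (0.19 ± 0.06) and BTG1 (-0.20 ± 0.06). BBC3 had 24.2 and 26.2 CPM with doxycycline, against 19 and 21.3 CPM (0.33 ± 0.11, edgeR adjusted p = 0.0271), and 23.3 and 22.2 CPM with both, against 13.1 and 16.1 CPM with IFN (0.63 ± 0.11, edgeR adjusted p = 4.89e-05). None of the 29 passed the edgeR test of the interaction itself, in which 0.158% of all genes were called. Of the 29, 5 had an unadjusted p under 0.05, and DESeq2 called 0. Leaving out IFN replicate 2 raised the calls over the whole table, so its count of listed genes is not given. For doxycycline alone, BBC3 was lost without untreated replicate 1 (0.24, edgeR adjusted p = 0.272) or doxycycline replicate 2 (0.27, 0.192), RRM2B without untreated replicate 1 (0.21, 0.0797) or doxycycline replicate 1 (0.16, 0.203), and TNFRSF10B (-0.28 ± 0.08) without untreated replicate 2 (-0.28, 0.0528) or doxycycline replicate 1 (-0.20, 0.189). ZMAT3 (-0.24 ± 0.09) was lost without untreated replicate 1 (-0.18, edgeR adjusted p = 0.305), doxycycline replicate 1 (-0.26, 0.103) or doxycycline replicate 2 (-0.23, 0.171), and GADD45A (0.13 ± 0.04) without any of the 4 libraries (0.11 to 0.14, 0.077 to 0.199). With IFN present, MDM2 was lost without IFN replicate 2 (0.17, edgeR adjusted p = 0.0591) or combined replicate 2 (0.08, 0.504), TNFRSF10B (-0.26 ± 0.08) without IFN replicate 2 (-0.23, 0.126) or combined replicate 1 (-0.18, 0.278), and SESN1 (0.25 ± 0.08) without IFN replicate 2 (0.20, 0.172) or combined replicate 2 (0.20, 0.17). Leaving out the shallow IFN replicate 1 moved the calls over all genes as well as those of the listed genes. In cells with both treatments against untreated KRAB-D9 cells, 6 were higher (TP53INP1 1.15, BTG2 0.69, DDB2 0.62, CCNG1 0.27, MDM2 0.23, GADD45A 0.18) and 5 lower (ZMAT3 -0.81, TRIAP1 -0.52, BAX -0.34, AEN -0.23, CMBL -0.16), where 25% of all genes were called, 12.5% in either direction; at 5 CPM or more it was 11 of 25 (44%), against 45.1%.

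The doxycycline effects in the VPR-D9 line (D2000) and the KRAB-D9 line use separate libraries and could be set side by side. BTG2, CCNG1, TP53INP1, RRM2B and SESN1 rose in both, and TNFRSF10A, AEN, TRIAP1 and CMBL fell in both. The induced fusions are an activator and a repressor, and SAMD9 rose in D2000 and fell with doxycycline in KRAB-D9. The part of SAMD9, of the fusions or of doxycycline itself in the shared changes was not tested. The 5 shared rises were 41.7% of the 12 rises in D2000 and 71.4% of the 7 in KRAB-D9. The 4 shared falls were 40% of the 10 falls in D2000 and 44.4% of the 9 in KRAB-D9. Of all genes tested, 21.9% rose and 24.2% fell in D2000, and 12% rose and 12.7% fell in KRAB-D9. The overlap of calls among all genes was not computed, so these shares cannot be read as particular to the listed genes. CDKN1A, ZMAT3 and TNFRSF10B rose in D2000 and fell in KRAB-D9, and GADD45A fell in D2000 and rose in KRAB-D9; for CDKN1A and RRM2B in both lines, and for ZMAT3, TNFRSF10B and GADD45A in KRAB-D9, the call rests on single libraries as given above. A test of the difference between the effects, D2000 minus KRAB-D9 doxycycline, called 9 listed genes higher and 9 lower (14 to 16 in all with any 1 library left out), where 31.3% of all genes were called, 12.2% higher and 19.1% lower (11 and 7 when scaled by library totals); at 5 CPM or more it was 17 of 25 (68%), against 54.6%. BTG2 rose more in D2000 (difference 1.11 ± 0.09, edgeR adjusted p = 8.88e-13) and AEN fell more there (-1.20 ± 0.08, edgeR adjusted p = 3.05e-15), whereas the changes of TP53INP1, CCNG1, SESN1 and RRM2B were not called different. The difference of CDKN1A was 1.09 ± 0.26 (edgeR adjusted p = 0.000901). Whether the D2000 and KRAB-D9 cells had doxycycline for the same time is not given in these sources.

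**Figure D3:**
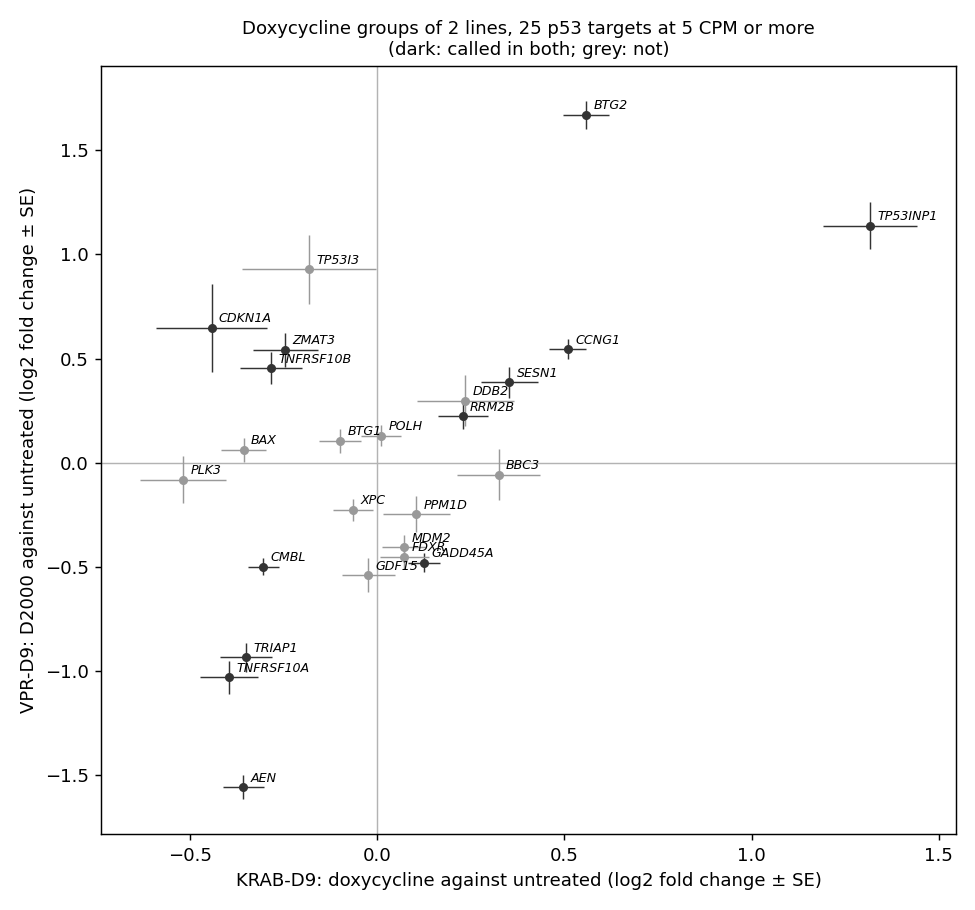
Log2 change of the 25 listed genes of at least 5 CPM with doxycycline in KRAB-D9 (horizontal axis) and in D2000 of VPR-D9 (vertical axis), with standard errors as bars and the 13 genes called in both in dark. Of the dark points, 9 lie in the quadrants where both changes have the same sign, and CDKN1A, ZMAT3, TNFRSF10B and GADD45A in the others.

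IFN lowered ZMAT3 in all 3 settings and changed few of the other listed genes. In parental cells 1 of the 29 was higher and 2 lower with IFN, where 4.34% of all genes were called, 3.03% higher and 1.31% lower. In KRAB-D9 cells 3 were higher and 4 lower, where 6.4% were called, 3.98% higher and 2.42% lower. At 5 CPM or more these were 3 of 25 (12%), against 8.15%, and 7 of 25 (28%), against 12%. Scaled by library totals, 2 were higher and 2 lower in parental cells. In KRAB-D9 cells with doxycycline, 1 was higher and 2 lower, where 4.89% were called, 3.12% higher and 1.77% lower; at 5 CPM or more it was 3 of 25 (12%), against 9.17%. The 3 calls in parental cells became 1 without untreated replicate 2 or IFN replicate 2 and 2 without either of the others, and the 7 in KRAB-D9 became 3 without untreated replicate 1 and 2 without untreated replicate 2. The 3 calls with doxycycline became 1 without doxycycline replicate 1 and 2 without doxycycline replicate 2. Calls over all genes fell in these fits too. Of the 10 erythroid markers, 5 were higher and 0 lower with IFN in parental cells, with sums of 2365 and 2439 CPM, against 2059 and 2073 CPM. In KRAB-D9, 4 were higher and 0 lower, with sums of 3595 and 3815 CPM, against 3192 and 3227 CPM. Of the 4 tested fibroblast and epithelial markers, 0 were called in parental cells and 1 was higher in KRAB-D9. In KRAB-D9 with doxycycline, 1 erythroid and 2 fibroblast and epithelial markers were higher with IFN and 0 lower. The part of these markers in the IFN results was not tested. ISG15, an interferon-induced gene, rose by 7.03 in parental cells and 7.12 in KRAB-D9 cells on the log2 scale. ZMAT3 had 14 and 13.6 CPM with IFN, against 22.6 and 22.4 CPM in untreated parental cells (-0.70 ± 0.09, edgeR adjusted p = 1.55e-07). In KRAB-D9 it had 12.4 and 12 CPM with IFN, against 20.7 and 18.9 CPM (-0.70 ± 0.09, edgeR adjusted p = 3.05e-07), and with doxycycline 11.3 and 11.3 CPM with IFN, against 16.9 and 16.5 CPM without (-0.56 ± 0.09, edgeR adjusted p = 2.27e-05). The groups did not overlap in any of the 3, and the calls in parental and KRAB-D9 cells were kept without any 1 library. CDKN1A and GDF15 were not called with IFN in any setting: CDKN1A had 5.75 and 6.98 CPM with IFN, against 6.5 and 6 CPM in untreated parental cells, and GDF15 had 23.6 and 28.5 CPM, against 23.7 and 24.3 CPM. In KRAB-D9, CDKN1A had 13.6 and 13.1 CPM with IFN, against 15.5 and 13.6 CPM. With doxycycline it had 13.9 and 13.6 CPM with IFN, against 10.9 and 10.5 CPM without, groups that did not overlap.

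The other IFN calls were small. BTG2 was called in parental cells (0.25 ± 0.07), at 21.2 and 22 CPM with IFN, against 17.4 and 18.8 CPM, and in KRAB-D9 (0.21 ± 0.06), at 81.2 and 76.9 CPM, against 69 and 67.5 CPM. The parental call was lost without any 1 of the 4 libraries (0.20 to 0.31, edgeR adjusted p = 0.0544 to 0.388), and the KRAB-D9 call without untreated replicate 1 (0.23, 0.121), untreated replicate 2 (0.20, 0.216) or IFN replicate 1 (0.17, 0.173). CCNG1 was called in parental cells (-0.20 ± 0.05), lost without untreated replicate 2 (-0.17, edgeR adjusted p = 0.202) or IFN replicate 2 (-0.19, 0.143), and in KRAB-D9 with doxycycline (-0.24 ± 0.05), where CMBL was also called (0.14 ± 0.04). In KRAB-D9 without doxycycline, CMBL was higher (0.21 ± 0.04, edgeR adjusted p = 0.000506), a call lost when only the compared groups were fitted (0.20, 0.0918). In that fit ZMAT3 was the 1 listed gene called in KRAB-D9, where 351 of all 18121 genes tested were higher and 114 lower. BBC3 (-0.45 ± 0.12) was lost there without untreated replicate 2 (-0.36, edgeR adjusted p = 0.175) or IFN replicate 1 (-0.32, 0.169), BAX (-0.19 ± 0.06) without untreated replicate 1 (-0.19, 0.198), untreated replicate 2 (-0.20, 0.15) or IFN replicate 1 (-0.13, 0.322), and BTG1 (0.19 ± 0.06) without untreated replicate 1 (0.20, 0.124), untreated replicate 2 (0.19, 0.156) or IFN replicate 2 (0.19, 0.0562). POLH (-0.18 ± 0.05) was lost without untreated replicate 1 (-0.19, edgeR adjusted p = 0.125), untreated replicate 2 (-0.17, 0.194) or IFN replicate 2 (-0.15, 0.179). The replicates of KRAB-D9 with IFN are those that differed most, and the model shares 1 spread over groups, so its errors may be too small for this group. None of the 29 passed the edgeR test of the IFN effect in KRAB-D9 minus that in parental cells, in which 0.303% of all genes were called. Of the 29, 4 had an unadjusted p under 0.05, and DESeq2 called 0. Leaving out KRAB-D9 IFN replicate 2 raised the calls over the whole table here too, so its count of listed genes is not given.

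Other lists of the pathway were set beside the listed genes. Of all genes tested, 46.1% were called in D2000 and 24.7% with doxycycline in KRAB-D9. At 5 CPM or more these shares were 73.2% and 44.7%. Calls in D2000 covered 72.2% of the further p53 targets, 92% of the DREAM genes, 50% of the ATF4 and CHOP genes and 80% of the FOXO genes. With doxycycline in KRAB-D9 they covered 33.3%, 36%, 85.7% and 50%. Of 40 further direct p53 targets, 36 were tested; in D2000 13 were higher and 13 lower (median 0.14; 18 and 10 when scaled by library totals), among them FUCA1, a lysosomal fucosidase (1.24 ± 0.08), EI24 (-0.76 ± 0.04) and the replication clamp gene PCNA (-0.71 ± 0.04), and with doxycycline in KRAB-D9 8 were higher and 4 lower (median -0.0021), among them ALOX5, the leukotriene-forming lipoxygenase (1.08 ± 0.16), SESN2 (0.49 ± 0.08) and PRKAB1, an AMPK subunit (0.29 ± 0.05). The 25 cell cycle genes that DREAM represses behaved differently in the lines: in D2000 1 was higher and 22 lower (median -0.58; 3 and 18 when scaled by library totals), with CCNA2 at -1.12 ± 0.04, RRM2 at -0.92 ± 0.04 and CDC25A at -1.20 ± 0.06, while in KRAB-D9 4 were higher and 5 lower with doxycycline (median -0.01; 5 and 4 by library totals). D2000 minus KRAB-D9 doxycycline called 0 of the 25 higher and 21 lower, where 31.3% of all genes were called (54.6% at 5 CPM or more). In D6, 0 were higher and 10 lower, where 6.6% of all genes were called (11.9% at 5 CPM or more). Before any treatment, 2 of the 25 were higher and 22 lower in VPR-D9 than in parental cells (median -0.44). In untreated KRAB-D9 cells 6 were higher and 8 lower. Of all genes, 36.8% and 28.5% were called in these comparisons. With IFN in KRAB-D9 cells given doxycycline, 4 of the 25 were higher and 9 lower, where 4.89% of all genes were called. CDKN1A, the link from p53 to DREAM, had at most 1.75 CPM in the D2000 libraries, and its part in the changes of the DREAM genes was not tested.

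Of the 14 genes of the ATF4 and CHOP stress response, 12 were higher and 0 lower with doxycycline in KRAB-D9 (median 0.50). With IFN present 10 were higher and 1 lower, where 22.3% of all genes were called (40.9% at 5 CPM or more). Most of the 14 started from a lower level. Set against the parental line and with no treatment, KRAB-D9 had 1 higher and 10 lower (median -0.51). VPR-D9 had 3 higher and 8 lower (median -0.53). Of all genes, 28.5% and 36.8% were called there. KRAB-D9 cells given doxycycline were not compared with the parental line, so their rise cannot be read as a level above it. The next values are for doxycycline alone. PHGDH, an enzyme of serine synthesis, rose by 1.64 ± 0.09, the cystine transporter gene SLC7A11 by 1.14 ± 0.09 and ATF4 itself by 0.49 ± 0.04. GDF15, which ATF4 and CHOP also activate, was not called there (-0.02). In D2000 3 of the 14 were higher and 4 lower (7 and 4 when scaled by library totals), and ATF4 fell (-0.70 ± 0.04), as GDF15 did. Of 10 FOXO factors and targets, 6 were higher and 2 lower in D2000 (median 1.01; 8 and 1 by library totals), with CCNG2 at 2.06 ± 0.16 and FOXO4 at 1.38 ± 0.07, and 5 were higher and 0 lower with doxycycline in KRAB-D9, with CCNG2 at 1.33 ± 0.17. Of 19 tested genes for p53 relatives and regulators, ATM, the damage kinase upstream of p53, rose in D2000 (1.70 ± 0.06) and in KRAB-D9 with doxycycline (0.63 ± 0.06), and PRMT5, an arginine methyltransferase, fell in both (-0.96 ± 0.04 and -0.40 ± 0.04). TP73 was not called in D2000 (0.11 ± 0.18) or with doxycycline alone in KRAB-D9 (0.20 ± 0.13). With IFN present, doxycycline in KRAB-D9 raised TP73 (0.48 ± 0.13, edgeR adjusted p = 0.00417). The part of any of these factors in the changes of the listed genes was not tested.

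**Figure D4:**
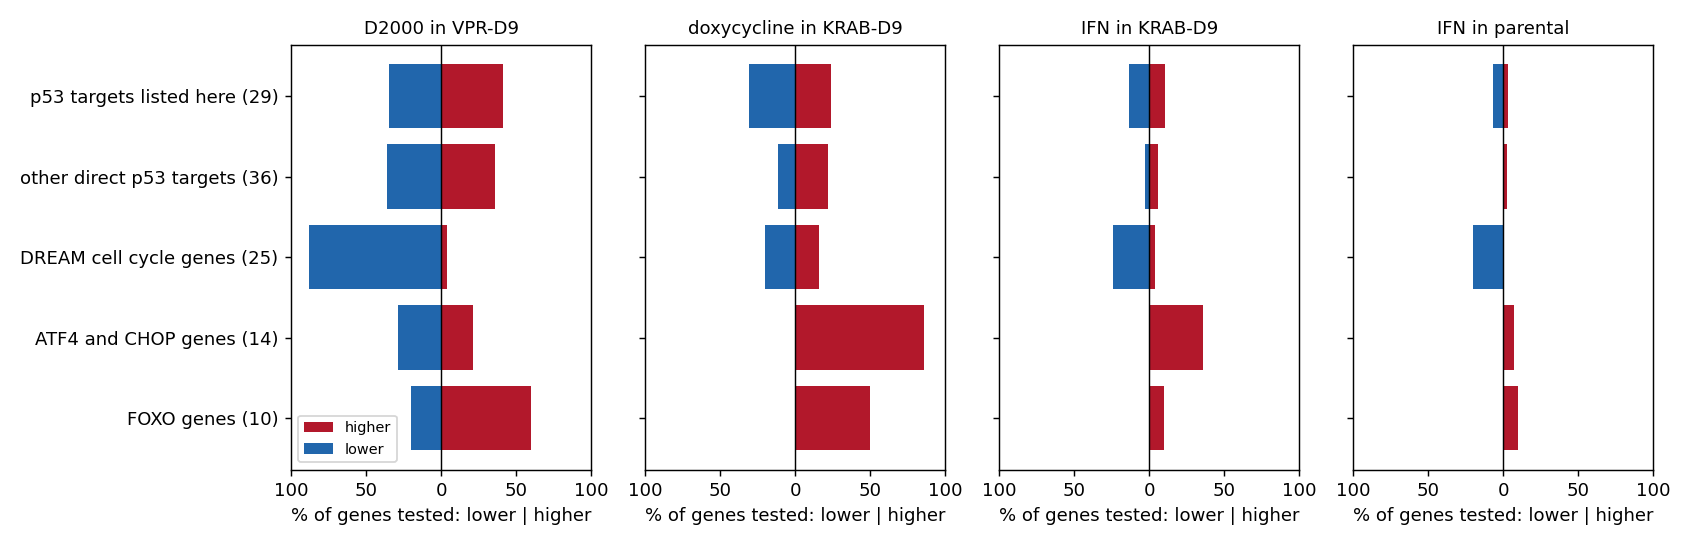
Percent of the tested genes of 5 lists that were lower (left of 0) and higher (right of 0) at an edgeR adjusted p under 0.05, for D2000 in VPR-D9, doxycycline in KRAB-D9, and IFN in KRAB-D9 and in parental cells. The p53 targets and the other direct targets have bars on both sides under either doxycycline treatment. The DREAM genes lie almost wholly to the left in D2000 (22 of 25), and the ATF4 and CHOP genes to the right in KRAB-D9 (12 of 14). Of all genes tested, 46.1%, 24.7%, 6.4% and 4.34% were called in these comparisons, in the order named.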

How the data were processed

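RNA of 9 groups of K562 cells (2 libraries each, grouped by the labels) was sequenced after poly-A selection with a stranded kit, per the labels' protocols. The authors deposited whole-number read counts per gene, not normalized. Tools listed in the submitters' processing notes are STAR 2.7.8a, featureCounts 2.0.2, FastQC 0.11.9 and cutadapt 2.10, with the build GRCh38.p13; the annotation release, strand setting and treatment of multi-mapping reads are not stated, so overlapping genes and near-identical copies are uncertain.

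From these counts, genes were filtered with filterByExpr by group (22143 of 41285 kept), scaled by TMM, and fitted with 1 quasi-likelihood model of 9 group means over 18 libraries (edgeR 4.0.16, robust, R 4.3.3; 9 residual degrees of freedom, common biological coefficient of variation 0.0569). Standard errors were derived from the F statistic (the log2 change divided by its root) and are approximate for few counts. There were 14 comparisons, and p-values were adjusted by Benjamini-Hochberg over all genes in each. Library totals of 32.7 to 63 M (median 52.9 M) set the precision. The fit was tested on simulated counts. Alternatives were DESeq2 1.42.0 (size factors and Wald test), library totals, no filter, only the compared groups, a replicate block, and each library left out.

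Listed genes called with a change of at least 0.5 on the log2 scale in a main comparison are given with every library's value, the others with their changes or counts, and in each pathway list up to 3 members with the smallest adjusted p. The genes, the lists and these rules were chosen with earlier results of these data known. Same-numbered replicates did not deviate together (correlations of -0.0856 to 0.0944 over 10446 genes) and were not paired. Fewer cells of a type and less RNA per cell cannot be told apart in bulk RNA. Promoters are from RefSeq (GRCh38.p14), and exon overlaps from GENCODE 29. Some genes of the lists are not reported here.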

Additional observations from a re-analysis of the deposited data

Results flagged for a closer look

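For 18 of the 29 tested genes, the effect of D2000 in VPR-D9 cells differed from that of doxycycline in KRAB-D9 cells in an edgeR test of the difference itself (Benjamini-Hochberg adjusted p under 0.05). With any 1 library left out, 14 to 16 were called. The values are D2000 effect minus KRAB-D9 doxycycline effect on the log2 scale.

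Among the genes of arrest and p53 control, the difference was 1.11 for BTG2, 1.09 for CDKN1A, 0.787 for ZMAT3, 0.436 for PLK3 and 0.203 for BTG1. It was -0.607 for GADD45A, -0.478 for MDM2 and -0.352 for PPM1D. CDKN1A had only 0.868 to 1.75 CPM in the VPR-D9 libraries that enter this difference.

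Among the apoptosis genes, the difference was 0.737 for TNFRSF10B and 0.417 for BAX, and -1.2 for AEN, -0.636 for TNFRSF10A and -0.585 for TRIAP1. Among the metabolic and secreted products it was 1.11 for TP53I3, whose partner on the other strand moved with it in D2000, and -0.526 for FDXR, -0.516 for GDF15 and -0.196 for CMBL. The fitted difference of 4.78 for TIGAR rests on 29 and 17 counts in D2000, 1 and 1 in untreated VPR-D9 cells, 2 and 8 in KRAB-D9 cells with doxycycline and 10 and 5 in untreated KRAB-D9 cells, and depends on the prior count.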

How the results depend on the processing

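Of 103 calls of listed genes in the main comparisons, 65 kept their direction and call under every alternative run, 37 lost the call under at least 1 of them (35 when a library was left out), and 1 changed sign: XPC in D2000, at 0.00387 when scaled by library totals. With 1 library left out, the number of listed genes called ranged over 11 to 15 for doxycycline in KRAB-D9 (16 with all libraries; 11 without untreated KRAB-D9 replicate 1), 14 to 17 with IFN present, 19 to 21 in D2000, 3 to 4 in D6, 13 to 14 in untreated VPR-D9 and 16 to 17 in untreated KRAB-D9 against parental cells. It ranged over 1 to 2 for IFN in parental cells (3 with all), 2 to 6 for IFN in KRAB-D9 (7 with all; 2 without untreated replicate 2) and 1 to 3 for IFN in KRAB-D9 with doxycycline (3 with all; 1 without doxycycline replicate 1). For the interaction and for the IFN effect in KRAB-D9 minus parental it was 0 with all libraries. Leaving out KRAB-D9 IFN replicate 2 raised the calls over the whole table in both, so counts of listed genes from that fit are not given. Fitted on the compared groups alone, which leaves fewer samples, IFN called 1 listed gene in KRAB-D9 and 5 in KRAB-D9 with doxycycline. Over all genes, that fit called 351 higher and 114 lower of 18121 in KRAB-D9, against 882 and 535 of 22143 in the full fit. In KRAB-D9 with doxycycline it called 838 and 514 of 18603, against 691 and 391 of 22143. Leaving out a library also moved the calls over all genes, so these ranges cannot be read as particular to the listed genes.

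Scaling by library totals moved the share of higher calls among all genes from 47.6% to 68.6% in D2000, from 48.4% to 69% in D6 and from 46.7% to 61.4% for doxycycline with IFN. That share moved from 53.6% to 31.2% in D6 against D2000 and from 38.9% to 63.2% for D2000 minus KRAB-D9 doxycycline. The fit with a replicate block gave the same 16 calls for doxycycline in KRAB-D9 and the same count in the other 13 comparisons, and the numbers do not pair the samples. With 2 libraries a group, the genes at few counts (FAS, EDA2R, PERP, TIGAR) and CDKN1A in VPR-D9 cells limit what can be said of them.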
